A study of Mus musculus with 161 samples.

Results

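Mouse embryonic stem cells that make CTCF with 2 changed residues, Y226A/F228A, were compared with cells that make CTCF without residues 179 to 265, the segment that holds both of them. Contacts were read by chromosome conformation capture carbon copy (5C), and the lines hold 4 of the 91 5C libraries of the series. They are both libraries of line EN297.3, clone 1 of Y226A/F228A, and both libraries of line EN212.1, ΔN(179–265), chosen by cell line and treatment alone. The label of EN212.1 gives only the residue range, and the vector name given with the study marks it as a deletion. Each line is 1 clone.

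CTCF binds DNA through its zinc fingers and stops the cohesin complex while cohesin extrudes chromatin loops. Its N-terminal domain precedes the zinc fingers and points towards the loop when the protein sits on its oriented motif, and a short motif around the tyrosine and the phenylalanine changed in Y226A/F228A is known to contact the SA2 and RAD21 subunits of cohesin. Domain boundaries in mammalian chromosomes are commonly occupied by CTCF, and insulation is the scarcity of contacts across such a boundary.

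All libraries come from male E14Tg2a cells (129/Ola background) in which endogenous CTCF carries an auxin-inducible degron (CTCF-AID), with Tir1 integrated at random and with Rtta3G and a doxycycline-inducible (TetO) CTCF cDNA at the Tigre locus. The Y226A/F228A, ΔN(179–265) and full-length cells were treated with auxin and doxycycline (dox) for 4 days, so endogenous CTCF was degraded while the transgene was expressed. The cDNA carries FLAG and mRuby2 tags. The amount of transgenic protein was not among the values used here, so a change in its function and a change in its amount cannot be told apart.

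The 2 lines were not made into libraries side by side. Both ΔN(179–265) libraries belong to a run of consecutive library numbers that also holds full-length replicates 2 and 3, and both Y226A/F228A libraries belong to another run that holds full-length replicates 12 and 13. Each line was therefore set against the full-length libraries of its own run, and these 2 comparisons share no library. The study describes its replicates as biological, while the labels do not say which libraries come from separate cultures. The p-values measure only the spread between libraries. In the limma fits that spread comes from all 22 libraries of the 2 runs, in 11 groups, unless a fit of the 8 libraries alone is named. Total counts in these 8 libraries ranged from 11625506 to 23096139. Between 33.9% and 58.3% of primer pairs were at 0, with ΔN(179–265) replicate 2 the highest. Whether the zeros shaped any difference was not tested.

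The segment lies in exons 3 and 4 of the 12 exons of the Ctcf transcript (mm9, chr8:108188197-108188769, plus strand, with an intron inside this range). The coding bases of residues 179 to 265 are shown because they are what the deletion removes, with the codons of the residues changed in Y226A/F228A in capitals. The sequence was read from the mm9 transcripts of GENCODE vM1 and equals the genome at these exons.
Ctcf, residues 179 to 265: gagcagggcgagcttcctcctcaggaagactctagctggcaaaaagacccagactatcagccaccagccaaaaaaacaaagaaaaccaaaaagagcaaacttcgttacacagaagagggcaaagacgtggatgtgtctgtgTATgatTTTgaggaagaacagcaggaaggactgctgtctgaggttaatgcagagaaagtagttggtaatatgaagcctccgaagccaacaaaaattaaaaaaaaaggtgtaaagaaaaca
The deletion removes 87 residues and 261 coding bases. The changed codons are TAT (chr8:108188338-108188340), which encodes tyrosine, and TTT (chr8:108188344-108188346), which encodes phenylalanine, both in exon 3, as the label of the line names them.

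5C read contacts between HindIII fragments across a region of chromosome X around Xist and Tsix, divided here into 230 bins of 20 kb from the start of the first fragment. Insulation was scored for each bin from the mean corrected contact between the 100 kb before it and the 100 kb after it, divided by the mean of such values in that library and taken as -log2. A lower score thus stands for more contacts across the bin. Of these bins, 193 could be scored, and 6 of them are the boundaries that the study used. Boundary 1 (chrX:99151148-99171148) lies in Nhsl2. Boundary 2 (chrX:99411148-99431148) and boundary 5 (chrX:101211148-101231148) overlap no annotated gene. Boundary 3 (chrX:100451148-100471148) overlaps 4930519F16Rik. Boundary 4 (chrX:100671148-100691148) holds Xist, the RNA that silences the X chromosome, and its antisense repressor Tsix. Boundary 6 (chrX:103211148-103231148) overlaps Atp7a, a copper transporter gene, and Cox7b, which encodes a subunit of cytochrome c oxidase.

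FLAG-CTCF peaks found in both of 2 libraries of cells with full-length CTCF, in mm9, put 11 peaks into 5 of these bins and none into boundary 5. The cells used for the peaks had auxin and dox for 2 days, whereas those used for 5C had them for 4 days. The pattern CC, any 3 bases, AG, any 2 bases, GGC, part of the CTCF motif, was searched on both strands of the peaks. It occurs 8 times in boundary bins, each time on the plus strand. In the whole region 39 of 78 peaks hold it (50.0%), 21 on the plus strand and 18 on the minus strand, against 2.29% of 22999 windows of the same 200 bases. The sites in boundary bins are shown because they are the matches inside full-length FLAG-CTCF peaks at the boundaries scored here, with the matched pattern in capitals.
Boundary 1, chrX:99170402-99170429: cagatacaCCAGAAGAGGGCactggatc
Boundary 2, chrX:99414653-99414680: tgtatagtCCAGCAGAGGGCactggatg
Boundary 2, chrX:99415164-99415191: cagacacaCCAGAAGAGGGCgtcaaatc
Boundary 3, chrX:100455385-100455412: ccaggtgaCCACTAGATGGCggtatagt
Boundary 4, chrX:100677065-100677092: gaaagaaaCCACTAGAGGGCaggtcaca
Boundary 4, chrX:100679563-100679590: tgaataaaCCAGCAGGTGGCagcatgaa
Boundary 6, chrX:103214287-103214314: caggcacaCCAGCAGGGGGCatcagatc
Boundary 6, chrX:103221926-103221953: ttagaaggCCAGAAGAGGGCatcgattc
A match describes the letters of the window and was not tested as a binding site in any line.

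Insulation averaged over the 6 boundaries was lower in both lines than in full-length. The Y226A/F228A libraries scored 0.39 and 0.37, against 0.59 and 0.57 in the full-length libraries of their run. The ΔN(179–265) libraries scored 0.44 and 0.42, against 0.59 and 0.59. Neither line overlapped its full-length libraries or the other line, and Y226A/F228A was the lower of the 2. As a share of own-run full-length, Y226A/F228A retained a mean insulation of 0.651 ± 0.028 and ΔN(179–265) of 0.726 ± 0.024 (SD, n = 2 libraries each). Against all 14 full-length libraries, which ranged from 0.54 to 0.71, both libraries of each line lay below all of them. A two-sided exact permutation test gave p = 0.0167 for each line, the smallest p that this test, which doubles the smaller tail, can give. It exchanges libraries across runs, although the 2 libraries of a line come from 1 clone and 1 run.

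**Figure D1:**
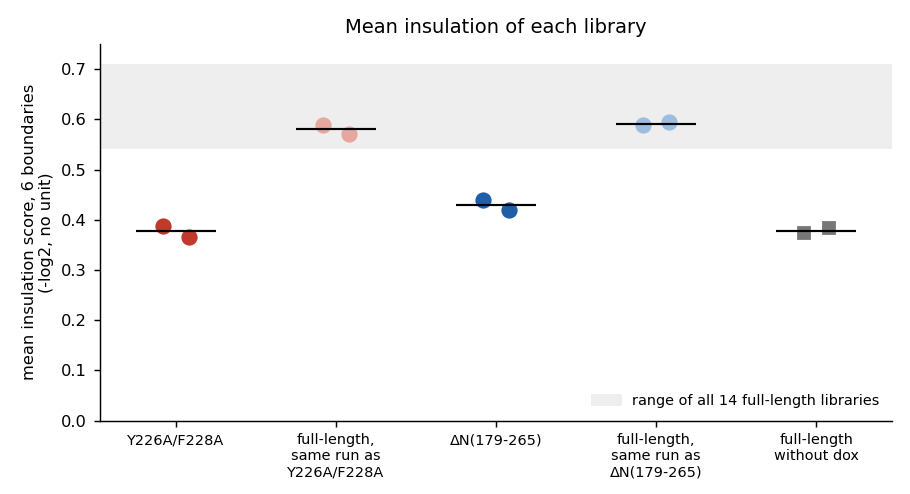
Mean insulation score over the 6 boundaries (vertical axis, -log2, no unit) of each library (points) with the group mean (black line), for Y226A/F228A, ΔN(179–265), the full-length libraries of each run and full-length cells without dox. The grey band is the range of all 14 full-length libraries, 0.54 to 0.71, and the 4 mutant libraries lie below it, with Y226A/F228A at 0.37 to 0.39 and ΔN(179–265) at 0.42 to 0.44.

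The direct difference, Y226A/F228A minus ΔN(179–265), was -0.052 (95% interval -0.085 to -0.020, from the spread pooled over 11 groups of 22 libraries). Two-sided exact permutation of these 4 libraries gave p = 0.333, the smallest p that 2 against 2 allows. The full-length libraries of the 2 runs differed by -0.012 in the same direction (95% interval -0.044 to 0.020). After each line's own full-length was subtracted, the difference was -0.041 (95% interval -0.086 to 0.0049), so the interval includes equal loss and also a further loss in Y226A/F228A of up to 0.086. An exact permutation within runs gave p = 0.556 over 36 arrangements, and the smallest p that these can give is 0.0556, above the threshold of 0.05. That permutation also moves the loss shared by both lines between groups.

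Cells of the full-length line that received auxin without dox, and so no induced CTCF, scored 0.37 and 0.38. They came from neither run. The Y226A/F228A values lay on both sides of theirs, and both ΔN(179–265) values were higher.

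Insulation fell at 4 of the 6 boundaries in each line, namely boundaries 2, 3, 5 and 6. Over all 193 scored bins, 34.2% were called for Y226A/F228A against own-run full-length and 34.7% for ΔN(179–265), with limma and an adjusted p under 0.05. All differences at boundaries are given in units of the score, on a log2 scale.

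Boundary 3 lost the most with the 100-kb window. With the 200-kb window, Y226A/F228A fell more at boundary 5 (by 0.37) than at boundary 3 (by 0.26). At boundary 3, with the 100-kb window, Y226A/F228A scored -0.00097 and 0.0081, against 0.44 and 0.33 in its full-length libraries. There ΔN(179–265) scored 0.06 and 0.01, against 0.40 and 0.39. Mutant and full-length libraries did not overlap in either run. The score fell by 0.38 in Y226A/F228A (SE 0.053, limma adjusted p = 4.8e-05) and by 0.36 in ΔN(179–265) (SE 0.053, limma adjusted p = 6.6e-05), and the changes differed by -0.02 (95% interval -0.18 to 0.14). Both lines thus reached a score near 0, the average of their own map, at this bin.

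Boundary 5, which holds no listed peak, scored 0.30 and 0.32 in Y226A/F228A against 0.64 and 0.63. The ΔN(179–265) scores were 0.40 and 0.45 against 0.77 and 0.74. The 2 runs were themselves apart here: full-length scored lower in the Y226A/F228A run by 0.12 (SE 0.029, limma adjusted p = 0.017). The direct difference of -0.12 between the lines (limma adjusted p = 0.012) was of that size, and the changes from own-run full-length were -0.32 and -0.33 (SE 0.029 each, limma adjusted p = 8.0e-07 and 6.5e-07). They differed by 0.0046 (95% interval -0.082 to 0.091).

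Boundary 2 was where the lines were farthest apart among the 6. Y226A/F228A scored 0.34 and 0.32 against 0.58 and 0.69, and ΔN(179–265) scored 0.50 and 0.48 against 0.59 and 0.70. Y226A/F228A lay below ΔN(179–265) in every library, whereas the full-length libraries of the 2 runs overlapped. The score fell by 0.31 in Y226A/F228A (SE 0.038, limma adjusted p = 1.3e-05) and by 0.16 in ΔN(179–265) (SE 0.038, limma adjusted p = 0.0038). The difference between these changes, -0.15 (95% interval -0.26 to -0.037), did not pass the threshold over all bins (limma adjusted p = 0.18). It passed with a 200-kb window (-0.16, limma adjusted p = 0.019), and from raw counts it was -0.045 (limma adjusted p = 0.77), with the fall in Y226A/F228A at 0.20. Without full-length replicate 3, the fall in ΔN(179–265) was 0.11 and did not pass (limma adjusted p = 0.083).

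Boundary 6 scored 0.48 and 0.46 in Y226A/F228A against 0.66 and 0.67, and 0.51 and 0.50 in ΔN(179–265) against 0.61 and 0.64. The falls were 0.19 (SE 0.031, limma adjusted p = 0.00016) and 0.12 (SE 0.031, limma adjusted p = 0.0066). The latter did not pass without full-length replicate 3 (0.11, limma adjusted p = 0.063) or from raw counts (0.030, limma adjusted p = 0.64). The changes differed by -0.07 (95% interval -0.16 to 0.021), and by -0.15 from raw counts (limma adjusted p = 0.13). With the 200-kb window some falls were smaller, though all passed: 0.088 at boundary 2, 0.21 at boundary 3 and 0.058 at boundary 6 in ΔN(179–265), and 0.094 at boundary 6 in Y226A/F228A.

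Boundary 4, at Xist and Tsix, had the highest score of the 6 in every library and passed the test in neither line. It scored 1.50 and 1.41 in Y226A/F228A against 1.48 and 1.37, and 1.42 and 1.27 in ΔN(179–265) against 1.34 and 1.29. The mutant and full-length values overlapped in both runs. The change in ΔN(179–265) was 0.03, and from raw counts it was 0.17 and passed (limma adjusted p = 0.018). Boundary 1, where the score lay between -0.32 and -0.18 in all 8 libraries, also passed in neither line, with changes of -0.04 and -0.03 (SE 0.040 each).

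**Figure D2:**
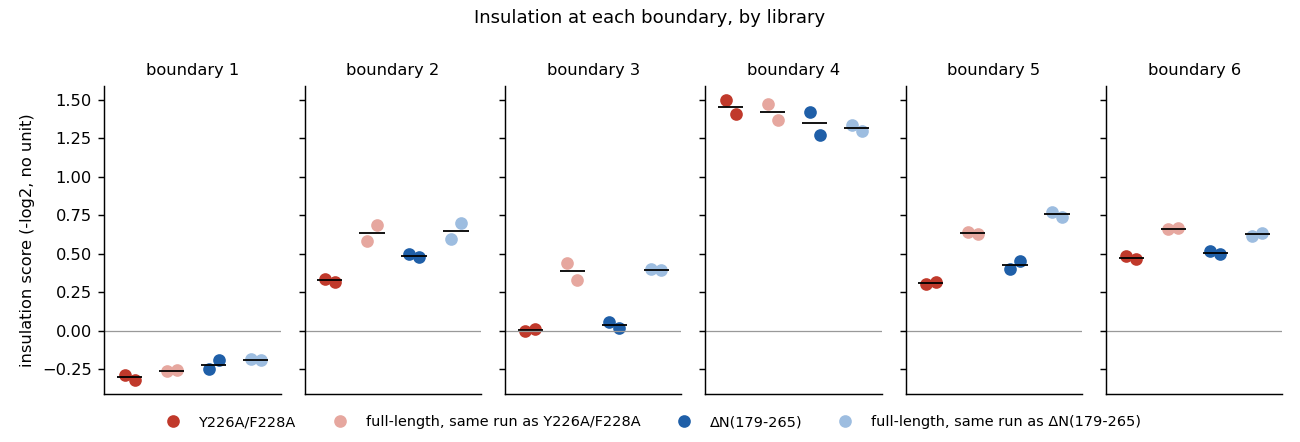
Insulation score (vertical axis, -log2, no unit) at each of the 6 boundaries, with a point per library and a black line at the mean of each group of 2. At boundary 3 both mutant lines lie near 0 and their full-length libraries between 0.33 and 0.44, while at boundary 4 all groups lie between 1.27 and 1.50.

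Across the whole map the 2 lines changed many of the same bins. Against own-run full-length, limma called 66 of 193 bins in Y226A/F228A (34.2%), 36 lower and 30 higher, and 67 in ΔN(179–265) (34.7%), 35 lower and 32 higher. The lines had 44 called bins in common, which are 66.7% of those called in Y226A/F228A and 65.7% of those in ΔN(179–265). All 44 had the same sign in both lines, 25 lower and 19 higher. Among the 22 bins called for Y226A/F228A alone, 16 had the same sign in ΔN(179–265), and among the 23 called for ΔN(179–265) alone, 18 had the same sign in Y226A/F228A.

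Of the 45 bins called in 1 line alone, 3 passed the test of the difference between the changes. These 3 are all that passed among 193 bins (1.55%, limma), and 28 bins had an unadjusted p under 0.05. In 106 bins the 95% interval of that difference lay within 0.2 of 0, a limit larger than the SD of the changes themselves. On simulated data, a difference between changes of 0.1 was recovered in 0% of 40 altered bins among 193. One of 0.2 was recovered in 62.5%, so smaller differences can go uncalled. The simulated bins were drawn as independent of each other, unlike the bins of the map. The SD of the changes over bins was 0.12 in Y226A/F228A and 0.13 in ΔN(179–265), and the changes of the lines had a Pearson correlation of 0.759 over 193 bins. Neighbouring bins share contacts, so bins are not independent, and no p is given.

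The direct comparison of the lines, without full-length, called 47 bins (24.4%), 26 higher and 21 lower in Y226A/F228A. The full-length libraries of the 2 runs differed in 15 bins (7.77%), and 7 of these were among the 47 called directly. Of the 47 direct differences, 40 had the sign of the full-length difference. That count was not set against the share over all scored bins. Without ΔN(179–265) replicate 2 the direct count was 18, and without Y226A/F228A replicate 2 it was 9. Without full-length replicate 12 or 13 the number of bins that differed between the full-length groups was 0 by limma, with 34 and 35 bins at an unadjusted p under 0.05.

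**Figure D3:**
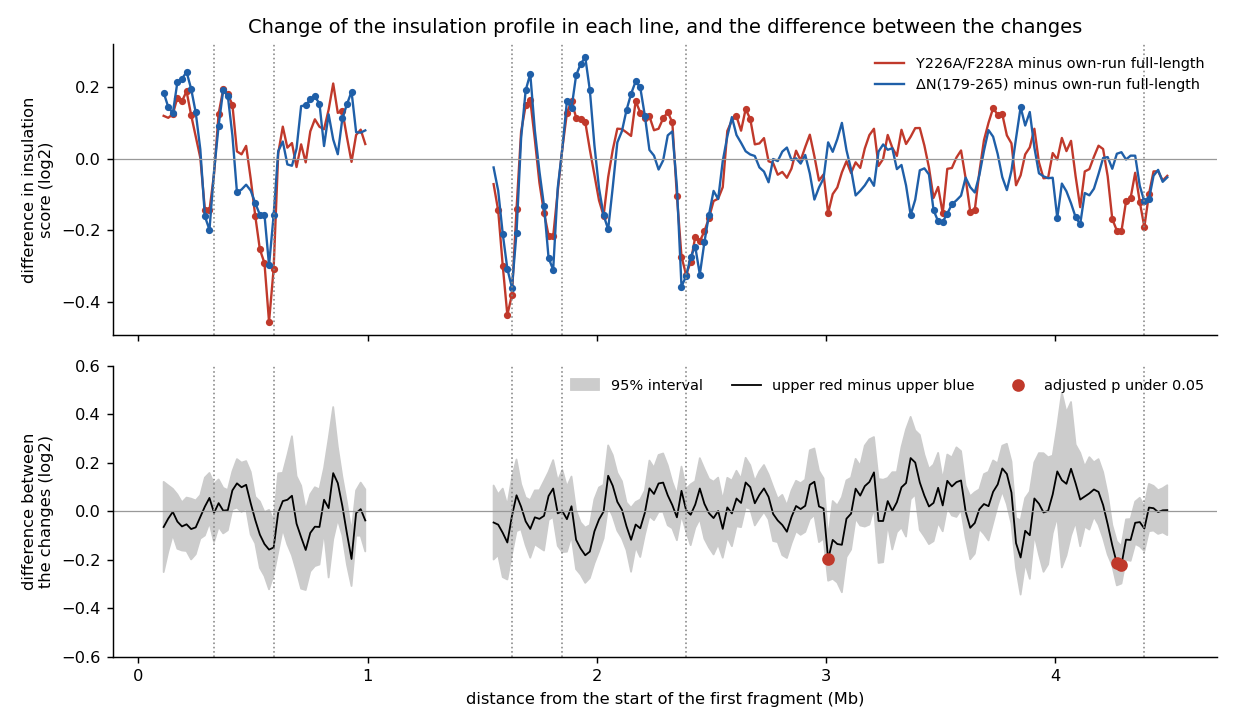
Upper panel: difference in insulation score (vertical axis, log2) between each line and its own-run full-length along the region (horizontal axis, distance from the start of the first fragment in Mb), with points at bins called by limma and dotted lines at the 6 boundaries. Lower panel: the difference between the 2 changes with its 95% interval in grey and the 3 bins with an adjusted p under 0.05 as red points, 2 of which lie side by side before boundary 6. Gaps are bins without a score.

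The 5 lowest changes in Y226A/F228A were at boundaries 2, 3 and 5 and at the bins just before boundaries 2 and 3. The bin just before boundary 2 (chrX:99391148-99411148) fell by 0.46 in Y226A/F228A (SE 0.055, limma adjusted p = 1.3e-05) and by 0.30 in ΔN(179–265) (SE 0.055, limma adjusted p = 0.00042). The bin just before boundary 3 (chrX:100431148-100451148) fell by 0.44 (SE 0.051, limma adjusted p = 1.3e-05) and 0.31 (SE 0.051, limma adjusted p = 0.00018). A bin in Tsix (chrX:100631148-100651148) that holds 3 peaks fell by 0.22 in Y226A/F228A and 0.31 in ΔN(179–265) (SE 0.039 each, limma adjusted p = 0.00040 and 2.5e-05).

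Other bins rose in both lines. A pair of bins in Nhsl2 (chrX:99031148-99051148 and chrX:99191148-99211148) rose by 0.19 and 0.20 in Y226A/F228A (limma adjusted p = 0.00075 and 0.00015) and by 0.24 and 0.19 in ΔN(179–265) (limma adjusted p = 8.3e-05 and 0.00016). A bin in B230206F22Rik (chrX:100771148-100791148) rose by 0.10 in Y226A/F228A (SE 0.038, limma adjusted p = 0.044) and by 0.28 in ΔN(179–265) (SE 0.038, limma adjusted p = 3.0e-05). These 6 bins were chosen after their values were seen, from the 5 highest and 5 lowest changes in each line.

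Bins with and without a FLAG-CTCF peak were among those called, and in each line the called share was larger among bins with a peak. Whether these shares differ was not tested. Of the 41 scored bins with a peak, 14 fell and 7 rose in Y226A/F228A, and 12 fell and 7 rose in ΔN(179–265). Of those without a peak, 22 fell and 23 rose in Y226A/F228A, and 23 fell and 25 rose in ΔN(179–265). The median change of peak bins was -0.04 in Y226A/F228A and -0.03 in ΔN(179–265), against 0.02 and -0.0051 in the others.

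**Figure D4:**
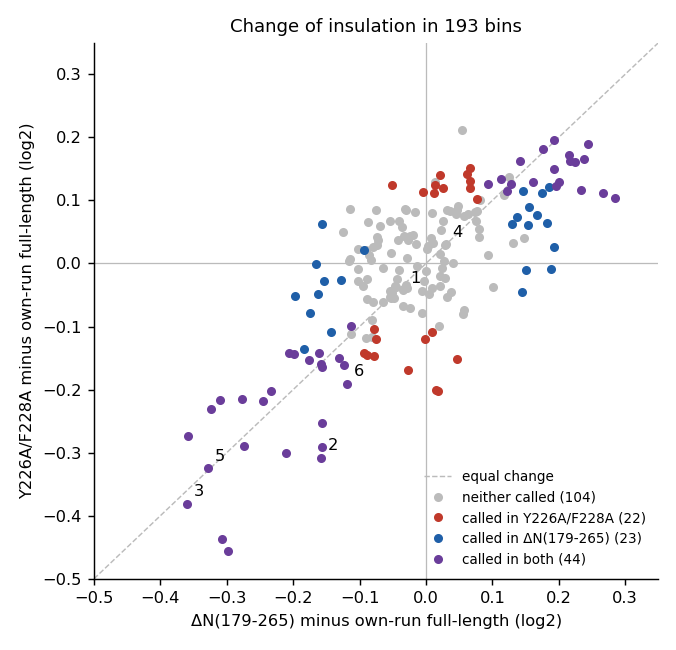
Change in insulation score of each of 193 bins in ΔN(179–265) (horizontal axis, log2) and in Y226A/F228A (vertical axis, log2), each against the full-length libraries of its own run, coloured by the line in which limma called the bin. Numbers mark the 6 boundaries. The 44 bins called in both lines lie at the lower left and upper right, and boundaries 3 and 5 lie on the dashed line of equal change.

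The 3 bins that separated the lines fell in Y226A/F228A. Their changes in ΔN(179–265) were higher than 0 and did not pass with the 100-kb window on corrected signal, but those of the 2 bins in Atrx passed under other settings. A bin in Atrx, a chromatin remodeller gene (chrX:103111148-103131148), scored -0.30 and -0.30 in Y226A/F228A against -0.09 and -0.10 in its full-length libraries. In ΔN(179–265) it scored -0.09 and -0.09 against -0.09 and -0.13. Only the Y226A/F228A libraries stood apart among these 8. The changes were -0.20 and 0.02, and they differed by -0.22 (SE 0.036, 95% interval -0.30 to -0.14, limma adjusted p = 0.0028). The difference was -0.44 from raw counts, where ΔN(179–265) rose by 0.14 (limma adjusted p = 0.020), and -0.15 with the 200-kb window, where it rose by 0.075 (limma adjusted p = 0.0050). The change in Y226A/F228A was -0.31 and -0.076 under these settings, and passed in both. This bin holds 1 peak with the same pattern, shown because it is the motif site of a bin where the lines differ.
Atrx bin, chrX:103116952-103116979, plus strand: caaacccaCCAGAAGAGGGCaccagatc

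The bin just before it (chrX:103091148-103111148), also in Atrx and without a peak, scored -0.17 and -0.15 in Y226A/F228A against 0.03 and 0.06. In ΔN(179–265) it scored 0.02 and 0.05 against 0.03 and 0.00095. The changes differed by -0.22 (SE 0.043, limma adjusted p = 0.011), by -0.41 from raw counts and by -0.14 with the 200-kb window. In ΔN(179–265) the bin rose by 0.13 from raw counts (limma adjusted p = 0.031) and by 0.071 with the 200-kb window (limma adjusted p = 0.012). The squares of these neighbours share most of their contacts, so these are not independent results. Without full-length replicate 13 of the Y226A/F228A run, this earlier Atrx bin did not pass (-0.20, limma adjusted p = 0.056).

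A bin in Zdhhc15, a palmitoyltransferase gene (chrX:101831148-101851148), scored -0.27 and -0.30 in Y226A/F228A against -0.12 and -0.14. ΔN(179–265) scored -0.17 and -0.19 there against -0.23 and -0.22. Here the full-length libraries of the runs also lay apart, by 0.09 (limma adjusted p = 0.063), in the opposite direction to the lines. The changes differed by -0.20 (SE 0.042, limma adjusted p = 0.013), by -0.29 from raw counts and by -0.11 with the 200-kb window. This difference did not pass without Y226A/F228A replicate 2 (-0.18, limma adjusted p = 0.069), without full-length replicate 12 (-0.19, limma adjusted p = 0.089) or 13 (-0.21, limma adjusted p = 0.054) of that run, or without full-length replicate 2 of the other (-0.19, limma adjusted p = 0.057). None of the 3 bins passed when the 8 libraries alone were fitted (limma adjusted p = 0.14 for each).

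Single contacts were then compared over 19919 pairs of bins at least 40 kb apart, as log2 of the mean corrected signal plus 0.1. With limma, 3 pairs were called in Y226A/F228A against own-run full-length (0.0151%) and 6 in ΔN(179–265) (0.0301%), with 1549 and 2016 pairs at an unadjusted p under 0.05. The direct comparison called 0 (0.0%), with 2462 pairs at an unadjusted p under 0.05 and 25 called by edgeR on raw counts. The difference between the changes also called 0 (0.0%), with 1413 pairs at an unadjusted p under 0.05 and 4 called by edgeR. The full-length groups differed in 0 pairs by limma (0.0%), with 1801 at an unadjusted p under 0.05 and 55 by edgeR. Against own-run full-length, edgeR called 81 pairs lower and 11 higher in Y226A/F228A. In ΔN(179–265) it called 62 lower and 14 higher. With 40-kb bins, limma called 14 lower and 47 higher in Y226A/F228A, and 49 lower and 19 higher in ΔN(179–265). The median 95% interval of a difference between changes reached 1.45 to each side on the log2 scale, and this interval takes no account of the number of pairs tested. The changes of the lines had a Pearson correlation of 0.0541 over all pairs and of 0.288 over the 1620 pairs within 200 kb, against 0.759 over bins, and 10525 of 19919 pairs had the same sign in both lines. Pairs share bins and libraries, so these values are a description.

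The median of all pairs was itself shifted, by -0.10 between the lines and by -0.21 between the full-length groups of the 2 runs. After own-run full-length was subtracted it was 0.05 in Y226A/F228A and -0.03 in ΔN(179–265).

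A single pair was called in both lines. It joins boundary 3 (1 peak) to the bin in Tsix named above (3 peaks), 180 kb apart. The corrected signal was 9.57 and 9.56 in Y226A/F228A against 16.7 and 15.9 in its full-length libraries, and 11.3 and 10.2 in ΔN(179–265) against 17.8 and 18.0. The mutant libraries of each run lay below the full-length ones. The contact fell by 0.77 in Y226A/F228A (SE 0.072, limma adjusted p = 0.00058) and by 0.73 in ΔN(179–265) (SE 0.072, limma adjusted p = 0.0011), on the scale of log2 of the signal plus 0.1. The changes differed by -0.04 (95% interval -0.25 to 0.18). Scaling by the expected value at each distance left neither fall past the threshold (-0.74 and -0.66, limma adjusted p = 0.067 and 0.063).

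The contact of boundary 2 (3 peaks) with a bin (chrX:99671148-99691148) 260 kb away in Hdac8 with 2 peaks fell by 1.48 in Y226A/F228A (SE 0.17, limma adjusted p = 0.0043). Hdac8 encodes the deacetylase of the cohesin subunit SMC3. The signal was 5.56 and 3.70 in Y226A/F228A against 13.4 and 12.4, and 9.83 and 10.7 in ΔN(179–265) against 14.1 and 15.4. Both lines lay below their full-length libraries, with Y226A/F228A the lower. The change in ΔN(179–265) was -0.52 (SE 0.17, limma adjusted p = 0.32) and the changes differed by -0.97 (95% interval -1.49 to -0.44, limma adjusted p = 0.43 over all pairs). Without full-length replicate 12 or 13 the fall in Y226A/F228A did not pass (limma adjusted p = 0.076 and 0.064).

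The third pair called in Y226A/F228A joins boundary 1 to another bin in Hdac8 (chrX:99491148-99511148), 340 kb away. It read 2.92 and 2.58 against 1.08 and 1.07. The ΔN(179–265) libraries read 2.01 and 2.13 against 2.66 and 2.07. Full-length of the Y226A/F228A run was the lowest of all groups there. The rise in Y226A/F228A was 1.28 (SE 0.19, limma adjusted p = 0.039), and it did not pass without full-length replicate 12 or 13 (limma adjusted p = 0.16 and 0.67) or without Y226A/F228A replicate 1 or 2 (0.099 and 0.11).

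In ΔN(179–265) the lowest change was in the contact of a bin without an annotated gene (chrX:102451148-102471148) with the bin just before boundary 6 (chrX:103191148-103211148), which overlaps Cox7b and Magt1, a magnesium transporter gene. The 2 bins are 740 kb apart and each holds 1 peak. The signal was 0.775 and 0.532 in ΔN(179–265) against 2.97 and 2.95, and 1.54 and 1.34 in Y226A/F228A against 1.55 and 2.28. The contact fell by 2.04 in ΔN(179–265) (SE 0.26, limma adjusted p = 0.016), and its change in Y226A/F228A was -0.37 (SE 0.26, limma adjusted p = 0.78). The changes differed by 1.67 (95% interval 0.88 to 2.47, limma adjusted p = 0.33).

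The contact of boundary 1 with a bin 80 kb away, both in Nhsl2, fell by 0.64 in ΔN(179–265) (SE 0.099, limma adjusted p = 0.042), with 12.4 and 11.6 against 20.01 and 17.6. In Y226A/F228A it read 10.5 and 9.42 against 13.9 and 13.1, a change of -0.44 (SE 0.099, limma adjusted p = 0.25). Of the other 3 pairs called in ΔN(179–265), all rose. The contact of boundary 5 with a bin 40 kb away that overlaps Rlim, a ubiquitin ligase gene that acts on X inactivation, changed by 0.62 in ΔN(179–265) and 0.21 in Y226A/F228A. A contact between Phka1, which encodes a subunit of phosphorylase kinase, and Gm14822 over 2120 kb changed by 1.91 and 0.42, and one between Zcchc13 and C77370 over 580 kb by 1.83 and 0.44. The contacts called in ΔN(179–265) alone did not pass without ΔN(179–265) replicate 2 (limma adjusted p = 0.061 to 0.21), without full-length replicate 2 (0.050 to 0.23) or without full-length replicate 3 (0.094 to 0.22). Those of Nhsl2, Phka1 and Zcchc13 also did not pass without full-length replicate 12 or 13 of the other run (limma adjusted p = 0.061 to 0.065). No contact called in either line passed when the 8 libraries alone were fitted (limma adjusted p = 0.36 to 0.60). Without ΔN(179–265) replicate 1, which leaves replicate 2 with its 58.3% of primer pairs at 0, limma called 0.788% of pairs in ΔN(179–265) in place of 0.0301%, and 1.08% in place of 0.0% in the direct comparison.

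**Figure D5:**
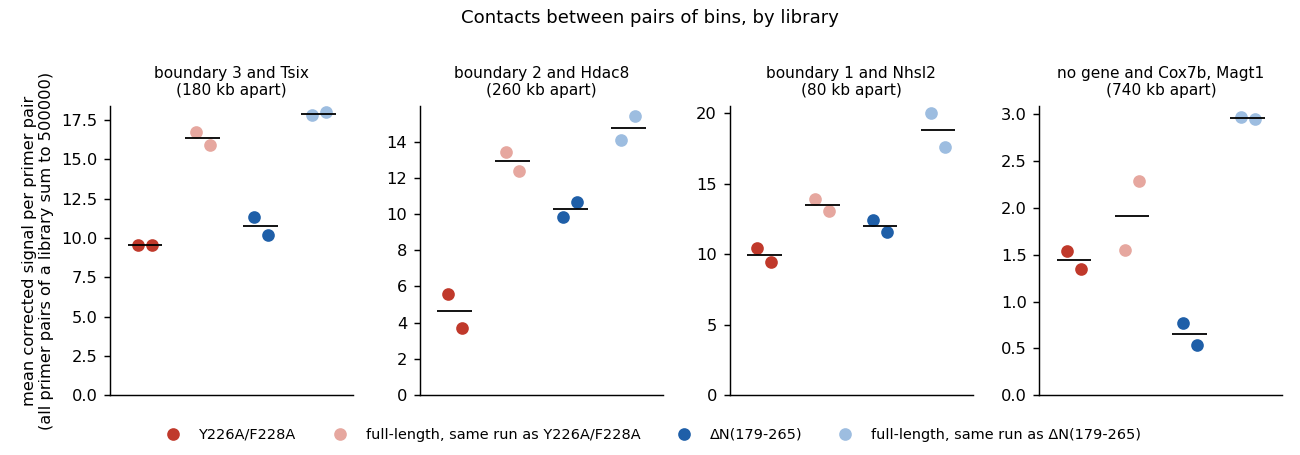
Mean corrected signal per primer pair (vertical axis, scaled so that all primer pairs of a library, each taken once, sum to 500000) for 4 pairs of bins, with a point per library and a black line at the mean of each group of 2. For boundary 3 and Tsix both mutant lines lie between 9.56 and 11.3 and full-length between 15.9 and 18.0, while boundary 2 and Hdac8 are lowest in Y226A/F228A and the bins 740 kb apart lowest in ΔN(179–265).

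No pair passed the test of the difference between changes, and the 6 with the smallest p had an adjusted p of 0.21 each (limma). Their signals were low in 4 of the 6 pairs, at most 0.72 in any of the 8 libraries. In the best covered of the 6, between Zdhhc15 and Gm14822 over 120 kb, the signal was 9.08 and 8.85 in Y226A/F228A against 5.59 and 4.91. In ΔN(179–265) it was 5.43 and 4.43 against 9.41 and 7.13. Each line thus lay near the full-length libraries of the other run there. Another of the 6 joins boundary 1 to Hdac8 and is described above. Of the 4 low pairs, one (Hdac8 and Gm14854, 3400 kb) was listed at 0 in both Y226A/F228A libraries and in both full-length libraries of the other run. Another (Gm5125 and a bin without a gene, 3480 kb) was listed at 0 in both ΔN(179–265) libraries and in both full-length libraries of the other run. The contact of C77370 with Pgk1 and Taf9b read 0.0675 and 0.168 in Y226A/F228A and 0.681 and 0.720 in ΔN(179–265), and that of Gm9516 with Zdhhc15 read 0.474 and 0.442 against 0.0223 and 0.0.

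Contacts were also summed inside the 7 segments between boundaries, as log2 of observed over expected at the same distance, and described without a test. In segment 3, between boundaries 2 and 3, Y226A/F228A read 0.23 and 0.25 against 0.41 and 0.39, and ΔN(179–265) read 0.33 and 0.31 against 0.44 and 0.53. Both lines were 0.16 lower than own-run full-length. In segment 1 they were lower by 0.16 and 0.18 and in segment 5 by 0.12 and 0.09. In segment 6, the longest with 1980 kb, the differences were -0.02 and 0.02. Segment 7 was higher in both lines, by 0.14 and 0.10. The differences were -0.04 and 0.03 in segment 2 and -0.0039 and -0.05 in segment 4.

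Across boundary 5, contacts between the adjoining segments were higher in both lines, 0.08 and 0.09 against -0.12 and -0.11 in Y226A/F228A, and -0.01 and -0.04 against -0.16 and -0.14 in ΔN(179–265). Between segments 6 and 7, across boundary 6, they were lower by 0.30 in Y226A/F228A and 0.29 in ΔN(179–265): -0.14 and -0.18 against 0.14 and 0.13 in Y226A/F228A, and 0.0093 and 0.03 against 0.34 and 0.29 in ΔN(179–265). These 873 bin pairs reach far beyond the 100-kb square in which the insulation of boundary 6 fell. Across boundary 4 the differences were -0.17 and -0.06, across boundary 1 they were 0.09 and 0.03, across boundary 2 0.07 and -0.0086, and across boundary 3 0.01 and 0.08.

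By distance, the groups lay close together. From 40 to 100 kb, 25.1% and 25.1% of the summed signal fell in Y226A/F228A against 25.9% and 25.7%, and 25.4% and 25.1% in ΔN(179–265) against 24.5% and 25.1%. The mean difference was -0.70 percentage points in Y226A/F228A and 0.51 in ΔN(179–265). From 500 to 1000 kb the signs were the reverse, with 0.58 and -0.84 percentage points. Beyond 2000 kb both lines were higher, by 0.48 and 0.78 percentage points.

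Bins that both hold a FLAG-CTCF peak, 100 to 1000 kb apart, gave 344 pairs, and their mean log2 of observed over expected hardly separated the groups. It was 0.03 and 0.03 in Y226A/F228A against 0.06 and 0.07, and 0.11 and 0.03 in ΔN(179–265) against 0.09 and 0.13. Full-length cells without dox, from neither run, read 0.16 and 0.17, above all of these. The measure was thus not lower in cells without induced CTCF. It cannot show whether the lines kept contacts that depend on CTCF. The difference from own-run full-length was -0.04 in each line (95% intervals -0.099 to 0.028 and -0.11 to 0.020). The difference between those changes was 0.0082 (95% interval -0.082 to 0.098, p = 1.0, two-sided exact permutation within runs, smallest possible p 0.0556).

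The profile of changes of Y226A/F228A was set beside those of the other lines of the ΔN(179–265) run, since these share no full-length library with it. Over 193 bins its correlation with ΔN(179–265), 0.759, was the highest of 5. It was followed by del264-288 with 0.716, H288R with 0.628, del1-88 with 0.527 and del89-178 with 0.526. The SD of the changes was 0.13 in ΔN(179–265), 0.14 in del264-288, 0.11 in H288R, 0.10 in del1-88 and 0.075 in del89-178. A correlation also depends on how large the changes are beside the spread between libraries, and the ranking does not separate these. Conversely, the profile of ΔN(179–265) had a correlation of 0.759 with Y226A/F228A, 0.691 with del1-265 clone 1, 0.668 with del13-33+Y226A/F228A and 0.02 with del13-33 clone 1. Lines of 1 run share their full-length libraries, so these values are not independent of each other, and whether neighbours in this order differ was not tested.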

How the data were processed

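5C was made on the 91 5C samples with HindIII. The authors mapped reads to primer pairs in mm9 and deposited raw counts per primer pair. They also deposited a signal, the counts after iterative correction at the fragment level, which sums to 1000000 in each matrix of both runs. These matrices are symmetric, so the primer pairs, each taken once, sum to 500000. FLAG-CTCF peaks were deposited as coordinates, without the blacklisted ones. Columns of other samples were not used.

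Corrected signal was averaged over primer pairs in 20-kb bins, with primers that held only zeros left out. The first 2 diagonals were filled, and a square needed 50% of its bin pairs measured. Of 22 libraries in the 2 runs, 11 groups were fitted with limma 3.58.1 (R 4.3.3), pseudocount 0.1, at least 2 primer pairs per bin pair, Benjamini-Hochberg adjusted p under 0.05. Library means were tested with exact permutation tests. The fits and the score were tested on simulated data. Alternatives were edgeR 4.0.16, raw counts, counts thinned to 11625506 per library and others given below. No pair of the 8 libraries shared more than 1.84% of equal nonzero counts. Zeros (1.03% of peak-pair values) were left out of means of logarithms. The name of a bin or pair followed a fixed rule: the 6 boundaries, up to 5 other bins with the largest called difference between the changes, and the 3 highest and 3 lowest called bin pairs (the smallest p where none was called). Pairs called in 1 line are given in addition. Lines, bins and tests were chosen with earlier results of these data known.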

Additional observations from a re-analysis of the deposited data

Results flagged for a closer look

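At 3 bins the change from own-run full-length differed between Y226A/F228A and ΔN(179–265) by limma's test of that difference over all scored bins. The differences in insulation score were -0.22 and -0.22 at the adjoining bins in Atrx and -0.20 at the bin in Zdhhc15, with Y226A/F228A the lower. From raw counts they were -0.44, -0.41 and -0.29, and with the 200-kb window -0.15, -0.14 and -0.11. Raw counts and the 200-kb window called 14 and 16 such bins, and the 8 libraries alone called 0, with 21 at an unadjusted p under 0.05. Line and clone cannot be told apart at these bins, since each line is 1 clone.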

How the results depend on the processing

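Mean insulation stayed lower in Y226A/F228A than in ΔN(179–265) under all 14 alternatives run, by -0.064 to -0.041 with a library left out, and so did the difference after own-run full-length (-0.052 to -0.029). In the direct comparison the called bins numbered 79 with a 200-kb window, 13 with the 8 libraries alone and 9 to 50 with a library left out. Between the full-length groups they numbered 61 from raw counts, 43 with the 200-kb window, 0 with the 8 libraries and 0 to 20 with a library left out. After own-run full-length they numbered 14, 16, 0 and 1 to 5 under the same settings. Against own-run full-length, Y226A/F228A had 43 to 69 and ΔN(179–265) 43 to 66 with a library left out, and ΔN(179–265) had 108 with the 200-kb window. The cause was not tested.

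Of all bin pairs tested, the direct comparison called 0.0703% in the upper 50% by signal, 2.59% with 40-kb bins, 0.126% and 0.206% with edgeR (TMM and RLE), and 0.0% to 1.08% with a library left out. Between the full-length groups the share was 2.45% with 40-kb bins and 0.276% and 0.286% with edgeR. After own-run full-length it was 0.0151% as observed over expected, 0.0201% with either edgeR scaling, and 0.0% to 0.196% with a library left out, the highest without ΔN(179–265) replicate 1. For Y226A/F228A against full-length it was 0.0301% in the upper 50%, 0.0050% as observed over expected, 0.0% with the 8 libraries, 1.10% with 40-kb bins, 0.462% and 0.417% with edgeR, and 0.0050% to 0.0502% with a library left out. For ΔN(179–265) against full-length it was 0.0194% with no minimum of primer pairs, 0.131% in the upper 50%, 0.0% with the 8 libraries, 1.22% with 40-kb bins, 0.382% and 0.346% with edgeR, and 0.010% to 0.788% with a library left out.

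Contacts between peak bins changed sign from raw counts (0.043 directly and -0.0065 after own-run full-length) and with a library left out (-0.077 to 0.0045 and -0.032 to 0.049). From raw counts the sign also turned at boundary 1 (0.081 after own-run full-length and 0.079 in Y226A/F228A), boundary 4 (-0.059 after own-run full-length) and boundary 5 (-0.0089 after own-run full-length). With the 200-kb window it turned at boundary 4 in ΔN(179–265) (-0.011) and boundary 5 after own-run full-length (-0.035). With a library left out, the difference after own-run full-length spanned -0.036 to 0.022 at boundary 1, -0.073 to 0.033 at boundary 3, -0.077 to 0.077 at boundary 4 and -0.020 to 0.029 at boundary 5. The change spanned -0.023 to 0.082 in Y226A/F228A and -0.048 to 0.11 in ΔN(179–265) at boundary 4, and -0.0022 to 0.031 in ΔN(179–265) at the earlier Atrx bin. None of these reversed values had passed a test.

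Equal replicate numbers did not pair the lines, which come from different runs: same-numbered libraries had deviations with a correlation of -0.045 over 2 pairs. With the replicate number as a block, 0 bins were called by limma in the direct comparison, with 37 at an unadjusted p under 0.05, and mean insulation differed by -0.052 (exact permutation by sign, p = 0.5, the smallest that 2 pairs can give). For single contacts on simulated data, a difference between changes of 1 on the log2 scale was recovered in 0.5% of 200 altered bin pairs among 19919, one of 2 in 24.0% and one of 4 in 73.5%. Depth was not varied there, and the bin pairs were drawn as independent of each other.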

Other observations

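Among the pairs of peak bins whose motif strands were known, 25 convergent pairs (motifs pointing at each other) had a mean log2 of observed over expected of 0.20 and 0.11 in Y226A/F228A against 0.26 and 0.21 in its own-run full-length, and of 0.27 and 0.32 in ΔN(179–265) against 0.61 and 0.46. The differences were -0.08 and -0.23. The 25 divergent pairs read 0.06 and 0.06 in Y226A/F228A against -0.21 and -0.35, and 0.04 and -0.08 in ΔN(179–265) against -0.28 and -0.06. Their differences were 0.34 and 0.15. In the 48 tandem pairs the differences were -0.03 and -0.09. These differences were not tested.

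The line del13-33+Y226A/F228A, of the same run as Y226A/F228A, retained 0.791 of own-run full-length mean insulation, and del1-265 clone 1 retained 0.820, both above the 0.651 of Y226A/F228A. In the run of ΔN(179–265), del264-288 retained 0.718, beside 0.726 for ΔN(179–265), and H288R, del1-88 and del89-178 retained 0.873, 0.824 and 0.943. Relative to all 14 full-length libraries, cells without dox retained 0.623, Y226A/F228A 0.621 and ΔN(179–265) 0.707. Differences between these lines were not tested.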
